A study of Mus musculus with 4 samples.

Results

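Immediate early genes and heat shock genes were followed in cells of intervertebral discs, the cartilaginous cushions of the spine, from mouse tails, by single cell RNA sequencing 7 days after a needle injury. The group was a named list of 37 genes, 31 immediate early genes and 6 heat shock genes, matched by symbol, and all 37 were found among the 32285 genes of the deposited matrices. There were 4 libraries, 1 control and 1 injured in each of 2 rounds. All mice were wildtype female C57BL/6, 12 weeks old, and both groups of discs came from the same animals. Injured discs were punctured on both sides with a 30G needle at the coccygeal levels CC5/6 to CC9/10 and taken at 7 days, while the discs at CC12/13 to CC16/17 served as uninjured controls. Tail level and injury therefore cannot be told apart. Discs of 6 mice were pooled, 30 per group, into 1 cell suspension, which was snap frozen; after thawing, live cells were sorted by exclusion of DAPI and captured in droplets; the labels do not say whether these numbers hold for each round. Each library is thus 1 pool of mice, and p-values below measure the spread between pools only in part. With 4 libraries the injury fits leave few residual degrees of freedom, and only 1 when round is also a term. They therefore lean on spread pooled over genes. Comparisons of cell groups with library as a term leave out the shift between pools.

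An immediate early gene is one that is transcribed within minutes of a stimulus, such as a growth factor, a cytokine, stretch or tissue disruption, without new protein synthesis, and whose short-lived RNA then declines. The AP-1 subunits of the Fos and Jun families, the zinc finger factors of the Egr and Klf families and the Nr4a nuclear receptors are among them, as are proteins that end the response, such as the phosphatase Dusp1 and the RNA-decay factor Zfp36. Heat shock genes encode chaperones that refold or hold damaged proteins, and heat shock factor 1 drives the inducible ones. Enzymatic dissociation of a tissue is known to induce both groups in the isolated cells, so in a suspension made from discs their RNA can come from the living tissue or from its handling. These data hold no sample taken without dissociation, so the 2 sources cannot be told apart here.

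A barcode counted as a cell from 250 detected genes upward. The control libraries held 378 and 856 cells in rounds 1 and 2 and the injured libraries 778 and 1834, from total UMI counts of 1114210, 9891258, 8943537 and 16972879. Counts were summed per library over disc cells, meaning the clusters named nucleus pulposus-like, inner annulus or cartilage-like, and outer annulus or fibroblast-like from their markers, in a clustering that left the 37 genes out. Disc cells numbered 265 and 380 in control and 523 and 1437 in injured discs, with median UMIs per cell of 2666 and 3946 against 9138 and 5639. The control library of round 1 stood apart in that its matrix held no barcode of few UMIs, and 115 of its barcodes had similar UMI counts in the injured library of the same round and 104 had far more there (29.2 to 44.8 times). Results below are therefore also given without these shared barcodes where the call or the count differs. Levels are in CPM, the counts of a gene per 1000000 summed UMIs, and the 3 prime assay counts molecules without regard to transcript length. In every list of 4 values below, control rounds 1 and 2 come first and injured rounds 1 and 2 follow.

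The promoters of 4 genes are shown because they stand for the groups described below: Fos and Nr4a1, among the members with the largest differences, Hspa1a, the inducible chaperone, and Ier3, the member that differed in the opposite direction. Each line holds the 250 bases before the start site, 5′ to 3′, from RefSeq on GRCm38.p6, the assembly that mm10 names. Capitals mark the cyclic AMP response element half-site TGACG or its reverse complement CGTCA in Fos (chr12:85473640-85473889, + strand) and Nr4a1 (chr15:101266596-101266845, + strand), the heat shock element pair GAANNTTC in Hspa1a (chr17:34972157-34972406, - strand) and the NF-kB motif in Ier3 (chr17:35821463-35821712, + strand).
Fos: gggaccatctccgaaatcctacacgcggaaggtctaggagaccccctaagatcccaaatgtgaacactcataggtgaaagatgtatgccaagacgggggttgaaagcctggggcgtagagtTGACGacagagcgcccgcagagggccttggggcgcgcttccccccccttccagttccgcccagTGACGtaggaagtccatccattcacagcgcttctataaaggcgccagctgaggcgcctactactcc
Nr4a1: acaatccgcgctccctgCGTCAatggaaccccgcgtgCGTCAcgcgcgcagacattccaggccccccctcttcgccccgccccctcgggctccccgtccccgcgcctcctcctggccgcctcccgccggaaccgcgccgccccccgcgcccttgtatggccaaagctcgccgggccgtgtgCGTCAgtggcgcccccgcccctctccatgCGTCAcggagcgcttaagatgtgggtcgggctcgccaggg
Hspa1a: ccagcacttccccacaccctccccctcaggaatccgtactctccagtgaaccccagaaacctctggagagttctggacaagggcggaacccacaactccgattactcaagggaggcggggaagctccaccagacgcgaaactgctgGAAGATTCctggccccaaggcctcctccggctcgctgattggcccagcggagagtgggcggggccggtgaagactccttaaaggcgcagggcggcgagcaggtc
Ier3: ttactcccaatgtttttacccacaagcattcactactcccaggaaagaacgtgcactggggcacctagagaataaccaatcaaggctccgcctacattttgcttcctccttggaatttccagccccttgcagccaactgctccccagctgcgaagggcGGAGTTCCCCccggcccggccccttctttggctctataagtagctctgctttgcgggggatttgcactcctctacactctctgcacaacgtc

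RefSeq promoter windows, 250 bases before to 50 after the start, were matched for 29 of the 37 members, 25 immediate early and 4 heat shock genes, all but Ier2, Hspa8, Egr3, Myc, Egr1, Nfkbiz, Cebpd and Hsp90aa1. The half-site TGACG, searched on both strands, was present in 15 of the 29 windows, among them Fos, Fosb, Junb, Atf3, Dusp1, Btg2 and all 3 Nr4a genes, against 23.0% of the 27025 genes with a window. The full palindrome TGACGTCA, which contains the half-site, was present in 3 of the 29 windows, Btg2, Dusp1 and Maff, against 2.03% of all genes. The pair GAANNTTC or TTCNNGAA was found in 3 of the 4 heat shock genes (Hspa1a, Hspa1b and Hsph1) and in 3 of the 25 immediate early genes, against 17.0% of all genes. The serum response element, searched by its CArG box, was present in Egr2 and Zfp36, against 1.81% of all genes. An NF-kB motif was present in 9 of the 29 windows (Egr2, Fos, Fosb, Fosl2, Hspa1a, Hspa1b, Ier3, Maff and Nr4a1), against 9.55% of all genes. It was thus present in all 4 genes whose promoters are printed, although only that of Ier3 is shown in capitals. These matches describe the letters in the windows and not the binding of a factor.

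Disc cells of injured discs held less RNA of most members than those of control discs. The 31 immediate early genes together made up 12989 and 18759.5 CPM in control and 9782 and 11238 CPM in injured discs, and the 6 heat shock genes made up 4954 and 5532 CPM in control and 3216 and 2064 CPM in injured discs. Both sums were lower in both injured libraries than in both control libraries. All 37 genes passed the filter on low counts, and 35 had a negative log2 fold change in injured discs, with a median of -0.83 over the 37 against -0.02 over all 11226 genes tested. The exceptions were Ier3 and Cebpd. Leaving out 1 library moved the median of the members to -0.95 (control round 1), -0.38 (control round 2), -0.56 (injured round 1) and -1.24 (injured round 2). In 18 of the 37 both injured libraries were below both control libraries, where 20.3% of all genes were, and 33 were lower in injured discs in both rounds, against 35.3% of all genes.

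**Figure D1:**
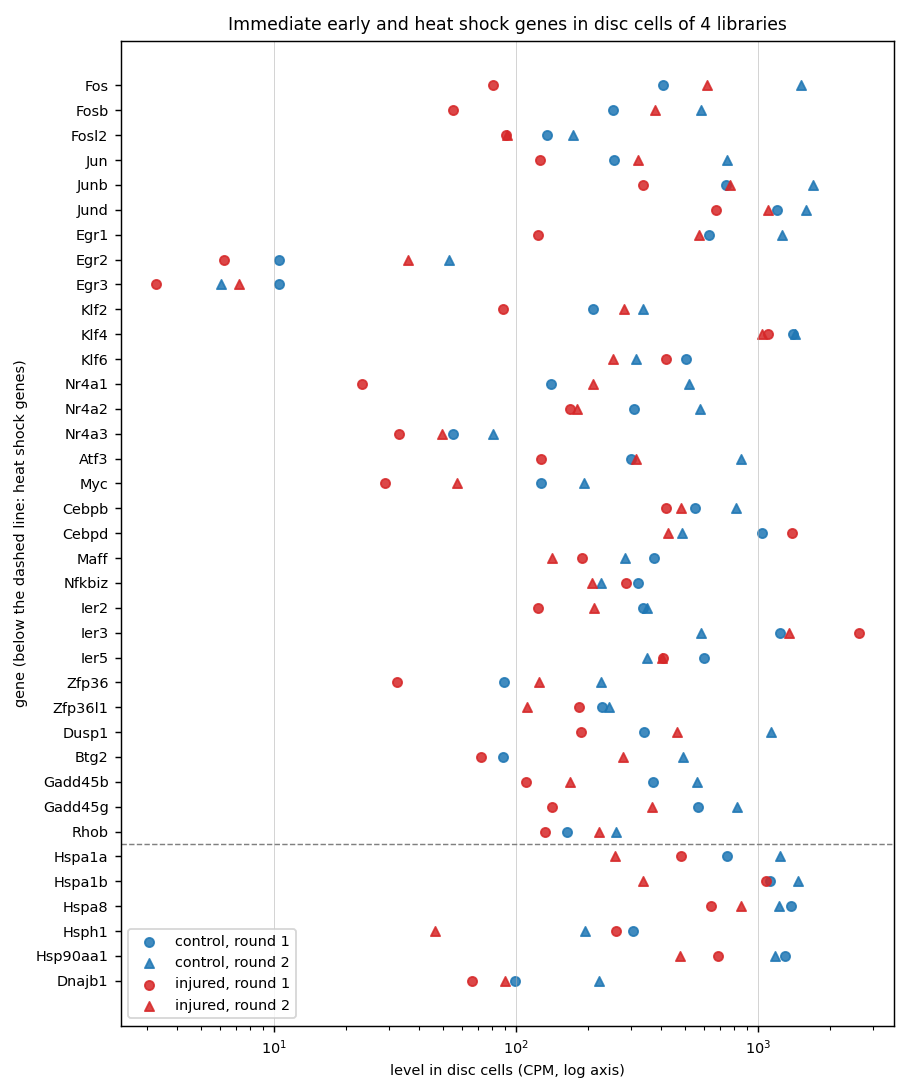
Level of each of the 37 genes in disc cells of the 4 libraries, in CPM on a log axis; blue is control, red is injured, circles are round 1 and triangles round 2. Red lies left of blue of the same shape for 33 of the 37 genes and right of it in both rounds for Ier3, and for Fos, Jun and Nr4a1 the triangles of both colours lie right of the circles.

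With injury as the only term, edgeR called none of the 37 genes and 2 of all genes (0.0178%), while DESeq2 called 2 members, Myc and Gadd45b, among 123 genes (1.1%). At an unadjusted p under 0.05 edgeR gave 8 members, all lower, against 3.72% of all genes lower at that p. The rounds pair the libraries, since control and injured discs came from the same animals. A fit with round as a block leaves few residual degrees of freedom. Its p-values, here and below, lean on the spread that edgeR pools over genes. With round as a block, 9 members were lower at an adjusted p under 0.05, against 2.21% of all genes: Myc, Gadd45b, Nr4a1, Fos, Gadd45g, Atf3, Egr1, Nr4a2 and Jun. All 9 are immediate early genes, and the smallest adjusted p among the 6 heat shock genes was 0.0604 in that fit. Without the shared barcodes the block gave 3 members (Myc, Gadd45b and Atf3; 1.23% of all genes), and with every cell thinned to 1000 UMIs it gave 19 lower members of 36 tested (4.37% of all genes) and Ier3 higher. The edgeR fit without a block called 6 members among 146 genes (1.41%) when injured round 2 was left out.

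Among the AP-1 subunits, Fos (ENSMUSG00000021250, chromosome 12, 85473890 to 85477273), the partner of Jun in the classic dimer, was at 408 and 1509.6 CPM in control and 80.5 and 617 CPM in injured discs. Control round 2 was the highest and injured round 1 the lowest, and the groups overlapped because injured round 2 lay above control round 1 (log2 fold change -1.36 ± 0.96 (SE), edgeR adjusted p = 0.823, and 0.0151 with round as a block). Fosb was at 254 and 583 CPM in control and 54.9 and 376 CPM in injured discs, in the same order. Jun was at 255 and 749.8 CPM in control and 126 and 320.3 CPM in injured discs (log2 fold change -1.08 ± 0.64 (SE), edgeR adjusted p = 0.766, and 0.0460 with round as a block). Junb, which restrains Jun, was at 739 and 1698 CPM in control and 337 and 767 CPM in injured discs (log2 fold change -1.06 ± 0.56 (SE), edgeR adjusted p = 0.735, and 0.0619 with round as a block). For Jun and Junb injured round 2 lay above control round 1, so the groups overlapped, and within rounds 1 and 2 the injured library held 0.495 and 0.427 of the control level for Jun and 0.456 and 0.452 for Junb. Jund, the least inducible Jun protein, was at 1197 and 1592 CPM in control and 671 and 1109 CPM in injured discs, and Fosl2 at 134 and 173 CPM in control and 91.5 and 92.0 CPM in injured discs. In both of these genes the injured libraries lay below the control libraries.

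Egr1, a zinc finger factor induced by growth factors and stretch, was at 629.9 and 1256 CPM in control and 123 and 575 CPM in injured discs (log2 fold change -1.34 ± 0.73 (SE), edgeR adjusted p = 0.747, and 0.0234 with round as a block), and the groups did not overlap. Its relatives were scarce, with Egr2 at 10.6 and 53.0 CPM in control and 6.23 and 36.0 CPM in injured discs and Egr3 at 10.6 and 6.07 CPM in control and 3.28 and 7.19 CPM in injured discs. Klf4, a regulator of differentiation, was among the most abundant members at 1402 and 1422 CPM in control and 1103 and 1040.5 CPM in injured discs. Its groups did not overlap but lay close together (log2 fold change -0.34 ± 0.34 (SE), edgeR adjusted p = 0.883, and 0.586 with round as a block). Klf2 was at 209 and 335 CPM in control and 89.0 and 282 CPM in injured discs and Klf6 at 505 and 316 CPM in control and 418 and 253 CPM in injured discs. Both overlapped between the groups, and both were lower in the injured library of each round.

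The 3 Nr4a genes encode orphan nuclear receptors that respond to cyclic AMP and calcium. Nr4a1 was at 139.5 and 523 CPM in control and 23.1 and 209 CPM in injured discs (log2 fold change -1.41 ± 1.00 (SE), edgeR adjusted p = 0.823, and 0.0117 with round as a block). Its injured round 1 value was the lowest by a wide margin, and injured round 2 exceeded control round 1. Nr4a2 was at 309 and 579.9 CPM in control and 168 and 179.6 CPM in injured discs, with no overlap (log2 fold change -1.29 ± 0.41 (SE), edgeR adjusted p = 0.529, and 0.0327 with round as a block). Nr4a3 was at 55.0 and 80.6 CPM in control and 33.1 and 49.6 CPM in injured discs, also with no overlap.

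Other transcription factors of the list included the largest difference. Myc (ENSMUSG00000022346, chromosome 15, 61985391 to 61990374), which drives cell growth and division, was at 128 and 191 CPM in control and 28.8 and 57.1 CPM in injured discs (log2 fold change -1.82 ± 0.46 (SE), edgeR adjusted p = 0.387, and 0.00252 with round as a block). Both injured libraries lay below both control libraries, at 0.226 and 0.298 of the control of their round. Atf3, a stress-induced repressor, was at 301 and 855 CPM in control and 127 and 316 CPM in injured discs (log2 fold change -1.30 ± 0.63 (SE), edgeR adjusted p = 0.722, and 0.0210 with round as a block). Cebpb, a mediator of inflammatory gene expression, was at 549.6 and 815 CPM in control and 418 and 480.3 CPM in injured discs, without overlap (log2 fold change -0.53 ± 0.37 (SE), edgeR adjusted p = 0.816, and 0.330 with round as a block). Maff, a small Maf protein that partners with oxidative stress factors, was at 373 and 282 CPM in control and 189 and 141 CPM in injured discs, also without overlap.

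A pair of factors tied to inflammation followed another order. Cebpd, an acute-phase factor, was at 1040.0 and 488 CPM in control and 1386 and 427 CPM in injured discs, higher in the injured library in round 1 and lower in round 2 (log2 fold change 0.28 ± 0.63 (SE), edgeR adjusted p = 0.965, and 0.807 with round as a block). Nfkbiz, an NF-kB cofactor, was at 321 and 225 CPM in control and 285 and 208 CPM in injured discs (log2 fold change -0.10 ± 0.38 (SE), edgeR adjusted p = 0.979, and 0.902 with round as a block). In both genes the round 1 libraries held more than the round 2 libraries, whatever the group.

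All genes of feedback and signalling but Ier3 had negative fold changes in injured discs. Only Gadd45b and Gadd45g among them were called with round as a block, and none with injury alone. Gadd45b and Gadd45g, stress sensors that activate p38 and JNK signalling, were among the largest differences. Gadd45b was at 369 and 563 CPM in control and 110.5 and 167 CPM in injured discs (log2 fold change -1.67 ± 0.41 (SE), edgeR adjusted p = 0.371, and 0.00502 with round as a block), and Gadd45g was at 565 and 821 CPM in control and 142 and 365 CPM in injured discs (log2 fold change -1.37 ± 0.53 (SE), edgeR adjusted p = 0.617, and 0.0191 with round as a block). Neither overlapped between the groups. Dusp1, the phosphatase that switches off MAP kinases, was at 338 and 1137 CPM in control and 187 and 466 CPM in injured discs (log2 fold change -1.09 ± 0.67 (SE), edgeR adjusted p = 0.783, and 0.0642 with round as a block), and Zfp36, which promotes decay of AU-rich RNAs, was at 89.8 and 226 CPM in control and 32.5 and 125 CPM in injured discs (log2 fold change -0.91 ± 0.70 (SE), edgeR adjusted p = 0.836, and 0.0510 with round as a block). In these 2 genes injured round 2 exceeded control round 1. Ier2 was at 337 and 349 CPM in control and 124 and 210.4 CPM in injured discs (log2 fold change -0.97 ± 0.40 (SE), edgeR adjusted p = 0.640, and 0.0690 with round as a block), without overlap.

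The remaining feedback genes differed less. Zfp36l1, a relative of Zfp36, was at 228 and 242 CPM in control and 182 and 112 CPM in injured discs. Btg2, an antiproliferative gene, was at 88.8 and 494 CPM in control and 71.8 and 277 CPM in injured discs, and the small GTPase gene Rhob was at 163 and 259.9 CPM in control and 132 and 221 CPM in injured discs. Ier5, an activator of heat shock factor 1, was at 600.3 and 350.4 CPM in control and 408 and 402 CPM in injured discs (log2 fold change -0.18 ± 0.40 (SE), edgeR adjusted p = 0.966, and 0.876 with round as a block). Only for Zfp36l1 among these 4 genes did both injured libraries lie below both controls.

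Ier3 (ENSMUSG00000003541, chromosome 17, 35821684 to 35822923), an NF-kB target that modulates cell survival and ERK signalling, was the 1 member higher in injured discs in both rounds and without overlap. It was at 1239 and 583 CPM in control and 2631 and 1350.5 CPM in injured discs, which is 2.12 and 2.32 times the control of the same round. The difference did not pass the test (log2 fold change 1.17 ± 0.52 (SE), edgeR adjusted p = 0.688, and 0.0520 with round as a block). With the block and cells thinned to 1000 UMIs it did (edgeR adjusted p = 4.20e-04).

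All 6 heat shock genes had negative fold changes in disc cells. Hspa1a (ENSMUSG00000091971, chromosome 17, 34969190 to 34972156), the main inducible Hsp70, was at 749 and 1237 CPM in control and 484 and 257 CPM in injured discs (log2 fold change -1.36 ± 0.45 (SE), edgeR adjusted p = 0.550, and 0.0604 with round as a block). Its neighbour Hspa1b (ENSMUSG00000090877, chromosome 17, 34956436 to 34959238) was at 1127 and 1469.9 CPM in control and 1078 and 337 CPM in injured discs (log2 fold change -0.83 ± 0.55 (SE), edgeR adjusted p = 0.810, and 0.204 with round as a block), so in round 1 the control and injured libraries were nearly alike. The transcripts of these genes are 85.5% identical overall and 52.8% over their last 300 bases, so their separate values are uncertain as far as reads fell into the shared part. Hspa8, the constitutive Hsc70, was at 1377 and 1226 CPM in control and 643 and 854 CPM in injured discs (log2 fold change -0.74 ± 0.37 (SE), edgeR adjusted p = 0.725, and 0.207 with round as a block), and Hsp90aa1, the inducible Hsp90, was at 1295 and 1184 CPM in control and 685 and 479 CPM in injured discs (log2 fold change -1.04 ± 0.37 (SE), edgeR adjusted p = 0.582, and 0.0672 with round as a block). The Hsp40 co-chaperone Dnajb1 was at 99.3 and 221 CPM in control and 65.9 and 90.7 CPM in injured discs (log2 fold change -0.96 ± 0.46 (SE), edgeR adjusted p = 0.717, and 0.0797 with round as a block). Hsph1, a nucleotide exchange factor of Hsp70, was at 306 and 194 CPM in control and 260.3 and 46.3 CPM in injured discs, and the groups overlapped for this gene alone of the 6. In Hspa1a, Hspa1b and Hsph1 the injured library of round 2 was the lowest, at 0.208, 0.230 and 0.238 of its control.

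Over all cells, unnamed, immune and vascular cells included, the picture was close to that of disc cells. The members had a median log2 fold change of -0.77, edgeR called 0 of 37 with injury alone (0.0834% of all genes; 9 members at an unadjusted p under 0.05, against 7.89% of all genes, and 2 called by DESeq2, which called 1.5% of all genes). With round as a block 17 members were lower (3.66% of all genes) and 1 was higher, Ier3. Without the shared barcodes the block gave 9 lower (1.76% of all genes) and Ier3 was not called. Leaving out 1 library moved the median to -0.92 (control round 1), -0.49 (control round 2), -0.59 (injured round 1) and -1.03 (injured round 2). Without the block, 1 member was called when control round 1 was left out (1.65% of all genes) and 11 when injured round 2 was (2.4% of all genes). Cell makeup differed between the groups, with unnamed cells at 27.0% and 54.4% of control and 21.1% and 14.7% of injured cells, so these sums mix makeup and expression. Of the 466 unnamed cells of control round 2, 379 lay in 4 clusters that were left unnamed because their control round 1 cells were barcodes of similar UMI counts in both round 1 libraries, led by Ccl11, by Krt18 and Krt8, by Igkc and Jchain, and by Ctrb1 and Try5. Nucleus pulposus-like cells, the notochord-derived cells of the disc core, came almost only from control discs (29 and 71 cells, against 5 and 1 in injured discs). Their immediate early genes summed to 18658 CPM in control round 1 and 2127 CPM in control round 2, at median mitochondrial shares of 37.3% and 49.3%, and no comparison between groups was made for them.

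Inner annulus or cartilage-like cells, named from markers such as Acan, Col2a1 and Sox9, numbered 195 and 257 in control and 484 and 1037 in injured discs. In this class 33 of the 37 members had negative fold changes, with a median log2 of -0.75, and edgeR called none of them, nor any gene (0%; 15 genes, none of them members, without the shared barcodes). At an unadjusted p under 0.05 there were 5 members (7.58% of all genes), and DESeq2 called none. With round as a block 11 members were lower (3.48% of all genes) and Ier3 was higher, and without the shared barcodes it gave 11 lower (3.29% of all genes) and Ier3 higher as well. Myc was at 100.1 and 198 CPM in control and 26.04 and 62.2 CPM in injured discs (log2 fold change -1.59 ± 0.53 (SE), edgeR adjusted p = 0.493, and 3.59e-05 with round as a block). Gadd45b was at 216 and 634 CPM in control and 95.2 and 173 CPM in injured discs (log2 fold change -1.50 ± 0.56 (SE), edgeR adjusted p = 0.569, and 7.44e-04 with round as a block), and Nr4a2 at 351 and 759 CPM in control and 164 and 234 CPM in injured discs (log2 fold change -1.32 ± 0.47 (SE), edgeR adjusted p = 0.532, and 0.00315 with round as a block). Ier3 was at 1289 and 652 CPM in control and 2743 and 1823 CPM in injured discs (log2 fold change 1.35 ± 0.47 (SE), edgeR adjusted p = 0.516, and 0.00919 with round as a block). Hsp90aa1 was at 1375 and 1418 CPM in control and 660.1 and 488 CPM in injured discs (log2 fold change -1.15 ± 0.38 (SE), edgeR adjusted p = 0.482, and 0.0203 with round as a block).

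As for the members above, the calls of Nr4a1, Egr1, Gadd45g, Fos and Ier2 in inner cells rested on the block. Their log2 fold changes were -1.49, -1.53, -1.23, -1.27 and -1.05. Their edgeR adjusted p-values with round as a block were 7.87e-04, 0.00297, 0.00581, 0.00704 and 0.0179. Fosb and Hsph1 were called there too. Both injured libraries lay below both controls for 9 of the 37 members (24.1% of all genes), so the sample groups overlapped for most. The median rested on single libraries: it was 0.07 without control round 2, -0.21 without injured round 1 and -1.24 without injured round 2, with 18, 23 and 34 members lower. Without the block, 4 members were called when control round 1 was left out (1.74% of all genes) and 4 when injured round 2 was (0.767% of all genes).

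Outer annulus or fibroblast-like cells, named from markers such as Col1a1, Dcn and Thbs4, numbered 41 and 52 in control and 34 and 399 in injured discs. Here 35 members passed the filter, all but Egr2 and Egr3, and 34 had negative fold changes, with a median log2 of -0.98. edgeR called none of them (0.733% of all genes), DESeq2 called Junb and Nr4a1 (1.78% of all genes), and 15 had an unadjusted p under 0.05, all lower (5.65% of all genes). With round as a block 17 were lower (5.17% of all genes). With cells also thinned to 1000 UMIs, 22 members passed the filter, all had negative fold changes and the block called none (6 at an unadjusted p under 0.05, against 15.1% of all genes). Without the block, edgeR called 3 members with no filter on low counts (1.84% of all genes), 1 without control round 1 (2.86%), 5 without injured round 1 (3.7%) and 3 without injured round 2 (1.26%). In 23 of the 35 both injured libraries lay below both controls (17.3% of all genes).

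Nr4a1 in outer cells was at 248 and 361 CPM in control and 78.1 and 99.3 CPM in injured discs (log2 fold change -1.79 ± 0.44 (SE), edgeR adjusted p = 0.102, and 8.46e-05 with round as a block). Zfp36 was at 201 and 343 CPM in control and 51.2 and 106 CPM in injured discs (log2 fold change -1.76 ± 0.51 (SE), edgeR adjusted p = 0.158, and 9.08e-05 with round as a block), and Junb at 1051 and 1474 CPM in control and 493 and 406 CPM in injured discs (log2 fold change -1.54 ± 0.42 (SE), edgeR adjusted p = 0.142, and 7.88e-04 with round as a block). Fos was at 969.9 and 1322 CPM in control and 294 and 539 CPM in injured discs (log2 fold change -1.48 ± 0.47 (SE), edgeR adjusted p = 0.195, and 7.65e-04 with round as a block). For these 4 genes, unlike in all disc cells, the groups did not overlap. Cebpd was at 628 and 363 CPM in control and 264 and 119.9 CPM in injured discs (log2 fold change -1.45 ± 0.52 (SE), edgeR adjusted p = 0.248, and 0.00179 with round as a block), and Klf4 at 2132 and 1234 CPM in control and 1249.9 and 396 CPM in injured discs (log2 fold change -1.11 ± 0.55 (SE), edgeR adjusted p = 0.445, and 0.00744 with round as a block). Cebpb was at 876 and 442 CPM in control and 366 and 209 CPM in injured discs (log2 fold change -1.26 ± 0.50 (SE), edgeR adjusted p = 0.324, and 0.0143 with round as a block).

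With the same block Atf3, Myc, Egr1, Jun, Gadd45b and Hspa1a were also lower in outer cells, at log2 fold changes of -1.43, -1.67, -1.21, -1.12, -1.12 and -1.20 (edgeR adjusted p from 9.21e-04 for Myc to 0.0322 for Jun), as were Maff, Btg2, Klf2 and Jund. The heat shock genes of outer cells summed to 6678 and 3962 CPM in control and 7087 and 1991 CPM in injured discs, more in both round 1 libraries than in both round 2 libraries. Within this sum Dnajb1, at 111 and 156 CPM in control and 102 and 53.3 CPM in injured discs, had both injured libraries below both controls and was not called (log2 fold change -0.89 ± 0.47 (SE), edgeR adjusted p = 0.485, and 0.118 with round as a block). Hspa1b, at 2034 and 1065 CPM in control and 2976 and 260.3 CPM in injured discs, was highest in injured round 1.

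Control and injured cells of 1 class were spread unevenly over its clusters. Of control inner cells 38.5% (72.8% without the shared barcodes) and 84.0% were in a cluster led by Cnmd, which encodes an angiogenesis inhibitor of cartilage, and Grem1, which encodes a BMP antagonist, against 4.96% and 6.75% of injured inner cells. Of control outer cells 85.4% and 92.3% were in a cluster led by Myoc and Angptl7, against 55.9% and 20.8% of injured outer cells. In round 1 this cluster thus held most outer cells of both groups, and most control inner cells lay outside the Cnmd and Grem1 cluster unless the shared barcodes were left out. Within the Cnmd and Grem1 cluster (75 and 216 control, 24 and 70 injured cells) 24 of 36 members had negative fold changes, with a median log2 of -0.18. Neither edgeR, with or without the block, nor DESeq2 called any of them, and 0 members without and 1 member with the block had an unadjusted p under 0.05 (with the block, 5.67% of all genes). With the block 0.801% of all genes were called in that cluster. Both injured libraries lay below both controls for 4 members (Ier2, Hspa8, Rhob and Klf6; 11.2% of all genes), and 15 were lower in both rounds (26.3% of all genes). Nfkbiz and Ier3 lay above in both injured libraries.

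Fos in the Cnmd and Grem1 cluster was at 187 and 1884 CPM in control and 115 and 1652 CPM in injured discs (log2 fold change -0.18 ± 1.18 (SE), edgeR adjusted p = 1.00), so the rounds differed far more than the groups. Nr4a1 was at 112 and 755 CPM in control and 63.1 and 809 CPM in injured discs (log2 fold change 0.06 ± 1.09 (SE), edgeR adjusted p = 1.00), in the same pattern. Hspa1a was at 510.5 and 1813 CPM in control and 550.5 and 864 CPM in injured discs (log2 fold change -0.72 ± 0.70 (SE), edgeR adjusted p = 1.00). Ier3 was at 717 and 562 CPM in control and 1112 and 775 CPM in injured discs (log2 fold change 0.56 ± 0.54 (SE), edgeR adjusted p = 1.00). Leaving out 1 library moved the median of the members to -0.65 (control round 1), 0.68 (control round 2), 0.38 (injured round 1) and -1.15 (injured round 2), so its sign depended on which library was absent.

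Within the Myoc and Angptl7 cluster (35 and 48 control, 19 and 83 injured cells) 27 of 36 members had negative fold changes, with a median log2 of -0.25. None was called by edgeR, with or without the block, or by DESeq2, and 0 members without and 3 members with the block had an unadjusted p under 0.05 (with the block, 7.11% of all genes). With the block 0.0264% of all genes were called. Both injured libraries lay below both controls for 7 members, among them Myc, Jun, Gadd45b, Hspa8 and Hsp90aa1 (21.6% of all genes), and 22 were lower in both rounds (37.2% of all genes). Myc was at 157 and 219.6 CPM in control and 86.1 and 112 CPM in injured discs (log2 fold change -0.72 ± 0.46 (SE), edgeR adjusted p = 0.999). Hspa1a was at 1939 and 1003 CPM in control and 1005 and 552 CPM in injured discs (log2 fold change -0.81 ± 0.47 (SE), edgeR adjusted p = 0.999). Fos, at 1028 and 1386 CPM in control and 179 and 1584 CPM in injured discs, was lowest in injured round 1 and highest in injured round 2. Without injured round 1 the median was 0.12, and without injured round 2 it was -0.68 with 2 members called (0.394% of all genes). The difference between the class-wide and the within-cluster values was not tested.

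**Figure D2:**
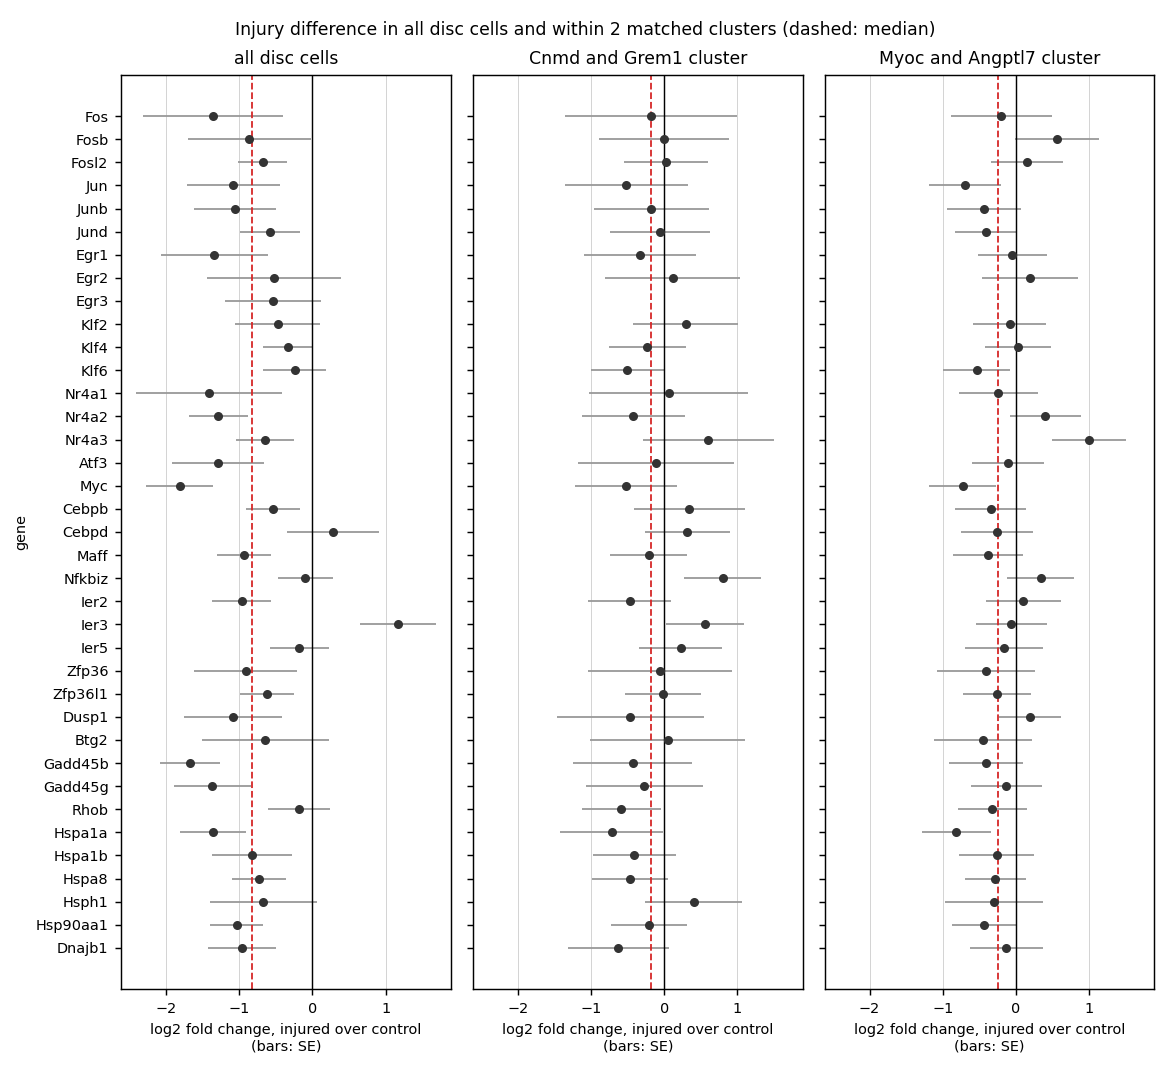
Log2 fold change of each gene, injured over control, with its SE from edgeR, in all disc cells, in the Cnmd and Grem1 cluster and in the Myoc and Angptl7 cluster; the dashed line is the median of the genes shown. The medians are -0.83, -0.18 and -0.25, and more bars cross 0 in both clusters than in all disc cells.

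The Cnmd and Grem1 cluster was compared with the other inner cells of the same libraries, with library as a term. Log2 differences were positive for 30 of 35 members tested, with a median log2 difference of 0.73; 13 were called higher and 2 lower (11.4% of all genes called). Without shared barcodes 9 were higher and 1 was lower (5.46% of all genes). Gadd45g (1.63 ± 0.24 (SE), edgeR adjusted p = 0.00220), Nr4a1 (1.65 ± 0.24 (SE), edgeR adjusted p = 0.00220) and Hspa1a (1.56 ± 0.35 (SE), edgeR adjusted p = 0.0170) had the largest log2 differences upward. Egr1 (1.21 ± 0.22 (SE), edgeR adjusted p = 0.00701) and Hsp90aa1 (1.22 ± 0.23 (SE), edgeR adjusted p = 0.00726) were also higher. Lower in the cluster were Ier3 (-1.23 ± 0.21 (SE), edgeR adjusted p = 0.00412) and Klf6 (-0.75 ± 0.22 (SE), edgeR adjusted p = 0.0446), of which Ier3 was called without shared barcodes too. These cells had median UMIs of 3908, 4187.5, 7057 and 2900 in the 4 libraries, against 772.5, 8147, 9416.5 and 5629 in the other inner cells. Without the shared barcodes the other inner cells of control round 1 had a median of 7754.5 UMIs, so the cluster was then the less deeply sequenced in every library. Median mitochondrial shares were 3.08, 8.92, 2.14 and 5.91% in the cluster. In the other inner cells they were 1.88 (2.01 without the shared barcodes), 6.11, 2.42 and 3.61%. How far depth or mitochondrial share enters the difference was not tested.

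The sums by library were compared in the same cell groups. In the Cnmd and Grem1 cluster the immediate early genes summed to 10388 and 24148 CPM in control and 9788 and 22209.8 CPM in injured discs, and in the other inner cells to 11835 and 11526 CPM in control and 9797 and 13343 CPM in injured discs. The cluster had the higher sum in both round 2 libraries. In round 1 it had the lower sum in control discs, where the other inner cells held 12787 CPM without the shared barcodes, and nearly the same sum in injured discs. In both cell groups injured and control values overlapped. The heat shock genes summed to 5529 and 7774 CPM in control and 5780.1 and 4626 CPM in injured discs in the cluster and to 3068 and 2249 CPM in control and 2879 and 2007 CPM in injured discs in the other inner cells, so the cluster had the higher sum in all 4 libraries. In the Myoc and Angptl7 cluster the immediate early sum was 17613 and 16467 CPM in control and 11474 and 15372 CPM in injured discs and the heat shock sum 6409.7 and 4192 CPM in control and 4757 and 2576 CPM in injured discs. Both sums of this cluster were lower in injured than in control discs within each round.

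**Figure D3:**
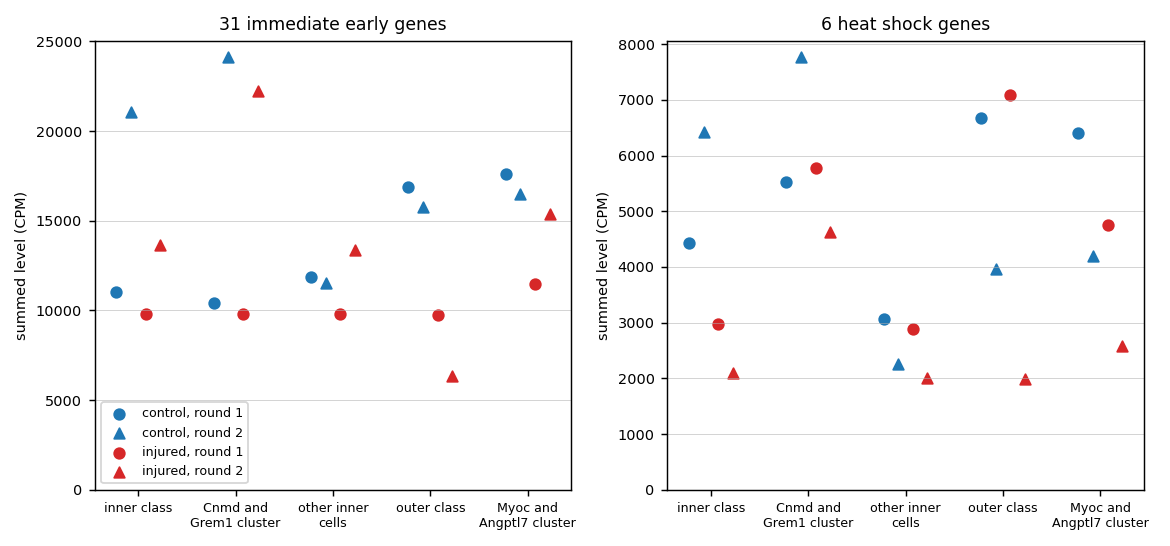
Summed level of the 31 immediate early genes and of the 6 heat shock genes, in CPM, by cell group and library; blue is control, red is injured, circles are round 1 and triangles round 2. In the inner class both injured points of the heat shock sum lie below both control points, while in the Cnmd and Grem1 cluster and in the other inner cells the colours overlap.

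Most injured inner cells lay outside the Cnmd and Grem1 cluster, and levels of the members varied between these clusters. In a cluster led by Mmp12 and Mmp3, matrix protease genes, Fos was at 33.1 and 94.9 CPM in injured rounds 1 and 2 and Hspa1a at 103 and 49.9 CPM. Ier3 was at 2995 and 2867 CPM in the same cells. In a cluster led by Cxcl2 and Ereg, Ier3 reached 4165 and 3021 CPM, and the 46 control round 1 cells there, with a median of 765.5 UMIs, held 4443 CPM. Control round 1 cells outside the Cnmd and Grem1 cluster were mostly shared barcodes, as 103 of the 195 inner cells of that library remained without these and all 75 of the cluster were kept. Cells led by Fmod and M1ap held less Ier3, 1567 and 836 CPM, and more Fos, 156 and 936 CPM. The acute-phase cluster led by Saa3, seen in 122 cells of injured round 2, held 16889.5 CPM of immediate early genes, more than the 12154 to 13816 CPM of the other injured inner clusters of that library apart from the Cnmd and Grem1 cluster. Among outer cells of injured round 2, those led by Aspn and Cthrc1 and those led by Hist1h2ap and Cenpf, genes of dividing cells, held 4716 and 4404 CPM of immediate early genes, against 15372 CPM in the Myoc and Angptl7 cluster. These values are from 1 or 2 libraries each and were not tested.

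Across all 4 libraries, outer and inner cells differed in 3 of 36 members tested (8.71% of all genes), with library as a term in edgeR. Zfp36l1 was higher in outer cells (log2 difference 1.05 ± 0.17 (SE), edgeR adjusted p = 0.00462), and Cebpd (-1.56 ± 0.34 (SE), edgeR adjusted p = 0.0210) and Nr4a3 (-1.19 ± 0.32 (SE), edgeR adjusted p = 0.0478) were lower there. The count moved with the settings: with no filter on low counts 13 of 37 members were called (10.6% of all genes), with DESeq2 size factors 2 (8.62%), and with cells thinned to 1000 UMIs 4 of 34 (9.24% of all genes). These 4 were Zfp36l1, Cebpd, Maff and Nr4a2, while Nr4a3 was not tested in thinned cells. The injury difference itself differed between the classes for 1 of 36 members, Ier3 (0.365% of all genes). Ier3 was higher in injured than in control inner cells, at 1289 and 652 CPM in control and 2743 and 1823 CPM in injured discs, and not in outer cells, at 1367 and 502.2 CPM in control and 940.1 and 392 CPM in injured discs. The outer minus the inner log2 change of Ier3 was -1.92 ± 0.38 (SE), edgeR adjusted p = 0.0454. Cebpd was next, with an outer minus inner log2 change of -1.74 ± 0.35 (SE), edgeR adjusted p = 0.0509, and was called at 0.0486 without the shared barcodes. With cells thinned to 1000 UMIs it was -1.12 ± 0.55 (SE), edgeR adjusted p = 0.667, and 1 member was called, Ier3 (0.525% of all genes). In all, 2 members were called for this difference without the shared barcodes (0.456% of all genes), 2 with DESeq2 size factors (0.575%) and 3 with no filter (1%).

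Levels also differed between the rounds of the experiment. Of the members called between rounds, 20 of 22 in inner cells were higher in round 2, and 9 of 10 in outer cells were lower. In a fit chosen after seeing the data, with injury as the other term, 14 of 37 members differed between rounds in disc cells (8.63% of all genes), 12 higher and 2 lower in round 2. Without the shared barcodes 6 differed (1.37% of all genes): Btg2, Jun, Egr2, Fos, Nr4a1 and Dusp1, all higher in round 2. Nr4a1 (log2 difference 2.54 ± 0.35 (SE), edgeR adjusted p = 0.00257), Egr2 (2.47 ± 0.31 (SE), edgeR adjusted p = 0.00156) and Fos (2.41 ± 0.35 (SE), edgeR adjusted p = 0.00338) had the largest differences. Hsph1 (-1.60 ± 0.37 (SE), edgeR adjusted p = 0.0275) and Cebpd (-1.40 ± 0.30 (SE), edgeR adjusted p = 0.0206) were lower in round 2. In inner cells 20 members were higher and 2 lower in round 2 (13% of all genes called), with log2 differences of 3.26 ± 0.33 (SE), edgeR adjusted p = 2.96e-09, for Fos and 3.32 ± 0.32 (SE), edgeR adjusted p = 5.64e-10, for Nr4a1. Without the shared barcodes 17 were higher and 2 lower (10.5% of all genes called), and Jund, Nr4a2 and Nr4a3 were no longer called (edgeR adjusted p = 0.0693, 0.0812 and 0.0660). In outer cells 1 of 35 members, Btg2, was higher and 9 were lower (4.24% of all genes called): Hspa1a, Hspa1b, Hsph1, Ier3, Ier5, Klf4, Maff, Nfkbiz and Nr4a2. Fos (0.68 ± 0.36 (SE), edgeR adjusted p = 0.350) and Nr4a1 (0.47 ± 0.38 (SE), edgeR adjusted p = 0.588) were not called in outer cells. Whether the round difference itself differed between the classes was not tested. The Cnmd and Grem1 cluster made up 38.5% of control inner cells in round 1 (72.8% without the shared barcodes) and 84.0% in round 2. Of injured inner cells it made up 4.96% and 6.75%. The part of this in the round difference of inner cells was not tested. In control discs alone Fos stood at 408 CPM in round 1 and 1509.6 CPM in round 2. On the CPM scale this gap was larger than that between control and injured discs of either round. As a ratio it was smaller than that between control and injured discs of round 1. The labels give no account of what set the rounds apart.

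Macrophage or monocyte-like cells, of which injured discs held 39 and 93 and control discs 1 and 3, were compared with disc cells of the same injured libraries. In edgeR 15 of 37 members differed, 8 higher and 7 lower in macrophages, where 22.1% of all genes were called. Hspa1a was the highest, at 3535 and 837 CPM in macrophages of rounds 1 and 2 against 484 and 257 CPM in disc cells (log2 difference 2.11 ± 0.33 (SE), edgeR adjusted p = 5.11e-09). Klf6 (1.83 ± 0.33 (SE), edgeR adjusted p = 2.90e-07), Zfp36 (1.30 ± 0.36 (SE), edgeR adjusted p = 0.00208), Dusp1 (1.22 ± 0.32 (SE), edgeR adjusted p = 0.00129) and Hspa8 (0.94 ± 0.32 (SE), edgeR adjusted p = 0.0184) were also higher. Cebpd was lower by the most, at 16.7 and 108 CPM against 1386 and 427 CPM (log2 difference -3.65 ± 0.40 (SE), edgeR adjusted p = 8.34e-18), followed by Egr1 (-1.59 ± 0.37 (SE), edgeR adjusted p = 1.53e-04) and Gadd45g (-1.53 ± 0.37 (SE), edgeR adjusted p = 2.81e-04). For Ier3 no difference passed the test, with 1522 and 2034 CPM in macrophages (log2 difference -0.28 ± 0.33 (SE), edgeR adjusted p = 0.646). The spread in this comparison comes from 2 libraries and 1 residual degree of freedom, so these p-values lean on the spread that edgeR pools over genes.

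Since cells of injured discs were sequenced more deeply, the share of disc cells with at least 1 UMI of a gene was also taken after thinning every cell to 1000 UMIs. This left out 97 and 49 control and 7 and 36 injured disc cells, and kept 168, 331, 516 and 1401. A Fos UMI was found in 22.0% and 47.7% of control cells and in 8.14% and 32.8% of injured cells. Egr1 was found in 39.3% and 48.0% of control cells and in 9.88% and 37.3% of injured cells, and Nr4a1 in 11.3% and 27.8% of control cells and in 3.29% and 17.1% of injured cells. For these 3 genes each injured library lay below the control of its round. Myc was found in 12.5% and 16.6% of control cells and in 3.49% and 6.35% of injured cells, and Gadd45b in 24.4% and 33.8% of control cells and in 11.4% and 15.1% of injured cells. In these 2 genes both injured shares lay below both control shares. Hspa1a was found in 20.8% and 40.5% of control cells and in 16.3% and 20.1% of injured cells.

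Ier3 went the other way, found in 46.4% and 27.8% of control cells and in 73.1% and 51.6% of injured cells. Klf4 was found in 59.5% and 58.0% of control cells and in 56.8% and 57.2% of injured cells, shares within each other's counting intervals (exact 95% binomial intervals of 51.7 to 67.0, 52.5 to 63.4, 52.4 to 61.1 and 54.6 to 59.9%). The interval for Fos was 16.0 to 29.1% in control round 1 and 5.93 to 10.8% in injured round 1. Intervals cover counting error only. Without thinning Fos was found in 25.3%, 67.9%, 28.3% and 60.8% of disc cells, so in round 1 the order of the groups depended on depth. Whether any cell type of these libraries lacks these genes was not tested. Macrophages of injured discs, thinned alike, held an Egr1 UMI in 9.68% and 13.8% of cells.

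**Figure D4:**
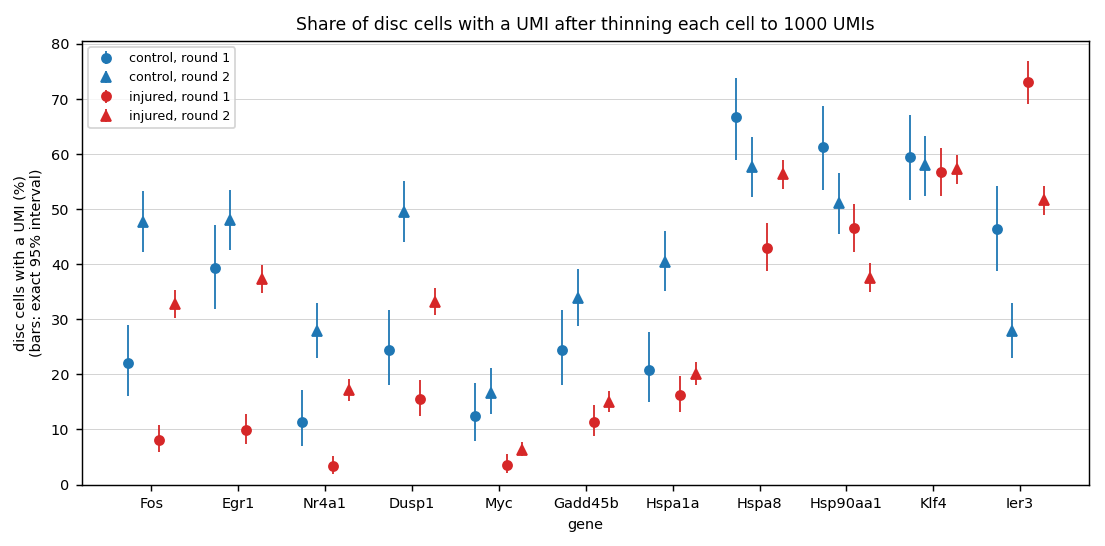
Share of disc cells with at least 1 UMI of 11 genes after thinning each cell to 1000 UMIs, in percent, with exact 95% binomial intervals; blue is control, red is injured, circles are round 1 and triangles round 2. Red lies below blue of the same shape for each of the 11 genes but Ier3, and the intervals of a round overlap for Klf4 in both rounds, for Dusp1 and Hspa1a in round 1 and for Hspa8 in round 2.

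Within the thinned cells, the 31 immediate early genes gave a median of 11 and 15 UMIs per 1000 in control and 9 and 11 in injured cells, and the 6 heat shock genes 3 and 3 against 2 and 2. Heat shock UMIs were uneven between cells: the tenth of disc cells with the most of them held 49.9, 44.6, 54.4 and 35.8% of these UMIs, against 26.1, 26.4, 21.6 and 23.8% for the immediate early genes. The rank correlation of the 2 sums over cells was 0.34 and 0.67 in control (155 and 331 cells, shared barcodes left out) and 0.08 and 0.18 in injured libraries (516 and 1401 cells). Cells of 1 library share its handling and 1 thinned depth, so these values describe the libraries. Among members that met a floor of 100 CPM, the pair with the highest correlation over cells was Hspa1a and Hspa1b. Its r was 0.79 and 0.69 in control and 0.79 and 0.45 in injured cells.

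Mitochondrial share, a sign of cell condition, moved with the groups in round 2. Its median in disc cells was 2.47% and 8.92% in control and 2.44% and 3.85% in injured discs, and all 13 mitochondrially encoded genes had negative fold changes in injured discs. Among disc cells under 5% mitochondrial UMIs, the immediate early genes summed to 13315 and 20316 CPM in control and 9873 and 11246 CPM in injured rounds 1 and 2, and the heat shock genes to 5154 and 5450.1 against 3286 and 1995 CPM. The differences of both sums were thus present among these cells too. With cells under 10% alone, the median log2 fold change of the members in disc cells was -0.73.

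Markers of other cell types were summed in the disc cells as well. The 12 macrophage or monocyte markers came to 54.9 and 29.2 CPM in control and 63.6 and 54.6 CPM in injured disc cells, with 7, 8, 2 and 1 of the 12 at 0, Adgre1 in every library. The 8 endothelial markers came to 35.9 and 12.1 CPM in control and 33.9 and 13.0 CPM in injured disc cells, and the 8 neutrophil markers to 18.0 and 4.41 CPM in control and 27.5 and 17.7 CPM in injured disc cells. Higher sums were found for the 8 mural markers, at 114 and 201 CPM in control and 147 and 301 CPM in injured disc cells, and the 7 Schwann or neural markers, at 206 and 273 CPM in control and 238 and 275 CPM in injured disc cells. Markers of the disc cell classes themselves moved with the groups. The 15 outer annulus or fibroblast markers came to 13045 and 13569 CPM in control and 23167 and 32216 CPM in injured disc cells, and to 7914 and 6585 CPM in control and 21955 and 23188 CPM in injured inner cells, with 2 of the 15, Postn and Cthrc1, at 0 in control round 1 inner cells. The 11 nucleus pulposus markers came to 1713 and 1262 CPM in control and 705 and 416 CPM in injured disc cells, lower in both injured libraries, with 3, 3, 3 and 4 of the 11 at 0, Noto and Krt15 in every library. The 6 osteoblast markers moved with the groups too, at 709.8 and 47.4 CPM in control and 21.1 and 8.80 CPM in injured disc cells. Nearly all of the control round 1 sum was Ibsp, a bone matrix gene, with 667 UMIs in control round 1, of which 656 came from 12 cells of the Cnmd and Grem1 cluster, while Bglap and Bglap2, Sp7 and Dmp1 had 0 or 1 UMI each in both control libraries. The part of these cell types in the differences of the members was not tested.

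Barcodes of up to 100 UMIs, taken here as free RNA, were listed for 3 libraries. Disc cells held more of 36 of the 37 members in CPM than these barcodes in control round 2 (median ratio 4.69) and of all 37 in injured round 2 (3.20). In injured round 1 they held more of 18 of the 37 and less of the others (median ratio 0.959). There Fos was at 649.9 CPM in these barcodes against 80.5 CPM in disc cells, and Jun at 680.4 against 126 CPM. Ier3 went the other way, at 677 against 2631 CPM, as did Cebpd at 227 against 1386 CPM and Klf4 at 256 against 1103 CPM. The part of free RNA in the differences between libraries was not tested.

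Other genes of the pathways were read from lists of known genes. Of 44 other immediate early genes tested in disc cells, 35 had negative fold changes (median log2 -0.40); edgeR called none with injury alone (6 at an unadjusted p under 0.05, where 7.74% of all genes were). With round as a block 6 were lower, against 2.21% of all genes: Gem, Sik1, Arc, Nfil3, Ier5l and Zfp36l2. The GTPase gene Gem was at 246 and 432 CPM in control and 40.2 and 84.0 CPM in injured discs (log2 fold change -2.37 ± 0.51 (SE), edgeR adjusted p = 0.307, and 5.70e-04 with round as a block). Sik1, a kinase induced by cyclic AMP, was at 41.2 and 80.0 CPM in control and 5.41 and 19.4 CPM in injured discs (log2 fold change -2.20 ± 0.66 (SE), edgeR adjusted p = 0.503, and 0.00206 with round as a block). At the upper end stood Cited2 at 313 and 218 CPM in control and 542 and 264 CPM in injured discs and Dusp6 at 26.4 and 8.83 CPM in control and 23.3 and 28.6 CPM in injured discs, neither called.

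Of 26 other heat shock genes 17 had negative fold changes (median log2 -0.28), none called with injury alone (4 at an unadjusted p under 0.05, against 7.74% of all genes) and 2 lower with the block (against 2.21%). These were Hspa2, a relative of Hsp70, at 60.2 and 108 CPM in control and 26.7 and 26.5 CPM in injured discs (log2 fold change -1.60 ± 0.40 (SE), edgeR adjusted p = 0.373, and 0.00940 with round as a block), and the co-chaperone Bag3 at 261 and 256 CPM in control and 122 and 120.4 CPM in injured discs (log2 fold change -1.03 ± 0.33 (SE), edgeR adjusted p = 0.543, and 0.0415 with round as a block). Bag1, at 272 and 231 CPM in control and 548 and 375 CPM in injured discs, and Hspa4l, at 25.4 and 31.5 CPM in control and 98.2 and 41.0 CPM in injured discs, were at the upper end and not called. Genes of the endoplasmic reticulum stress response went the other way in sign, with 13 of 15 positive (median log2 0.38) and none called in either edgeR fit (1 at an unadjusted p under 0.05 with injury alone). Manf and Trib3 were the highest, Manf at 149 and 98.8 CPM in control and 280.3 and 191 CPM in injured discs, and Dnajb9 and the chaperone Hspa5 the lowest, Hspa5 at 1121 and 726 CPM in control and 745 and 528 CPM in injured discs. Among 21 upstream kinases and factors 12 were negative (median log2 -0.07) and none was called (1 at an unadjusted p under 0.05 with injury alone). Srf, the serum response factor, was the highest at 3.17 and 4.97 CPM in control and 8.85 and 11.2 CPM in injured discs and Elk3, its partner, was at 66.6 and 44.1 CPM in control and 113 and 72.2 CPM in injured discs, while the JNK gene Mapk8 was the lowest at 32.8 and 23.2 CPM in control and 22.6 and 19.3 CPM in injured discs, followed by Creb1 at 52.8 and 40.8 CPM in control and 48.3 and 25.3 CPM in injured discs. Of the 13 mitochondrially encoded genes mt-Nd5 and mt-Nd6 were lower with the block.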

How the data were processed

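Single cell RNA of 4 libraries was measured, control and injured discs in each of 2 rounds. The authors deposited UMI counts per gene and barcode, made with Cell Ranger on mm10 per the labels and the submitters' processing notes; the file headers name version 6.0.0 for control round 1 and version 4 for the others, a difference that coincides with a shorter barcode list in that library. Counts were used as deposited. Barcodes with at least 250 genes were kept, as were genes seen in at least 5 cells (16401). Sums over disc cells rest on 946768 to 9884065 UMIs per library.

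Cells were clustered with scanpy 1.11.5 (2000 variable genes without the 37 members, 30 components, 20 neighbours, Leiden resolution 1). Clusters were named from marker lists, and 6 clusters stayed unnamed. Of these, 1 had fewer than 3 detected markers. Another had low UMIs and no marker of its best-matching class, outer annulus or fibroblast-like, among its top 10 genes. Those genes included the neutrophil markers S100a8, S100a9, Ngp and Camp. In 4 clusters over 50% of the control round 1 cells were barcodes of similar UMI counts in both round 1 libraries. Of these 4, 3 were nevertheless led by markers of a type. Doublets were kept, and removal of the cells with the highest Scrublet scores was an alternative. Summed counts were tested with edgeR 4.0.16 (filterByExpr, TMM, quasi-likelihood, two-sided, Benjamini-Hochberg over all genes tested, calls at an adjusted p under 0.05), with DESeq2 1.42.0 as an alternative in R 4.3.3. The scripts were tested on simulated data without a round effect, and the fit with round as a block was not part of that test. Rounds pair the libraries because, per the labels, control and injured discs came from the same animals, and 969 of 11226 genes differed between rounds in disc cells (edgeR). Other alternatives left out each library, changed the normalization or the filters on genes and cells, thinned cells to 1000 UMIs, or left out barcodes that both round 1 libraries share. The members and the gene lists were chosen with earlier results of these data known. Levels are given for all 37 members, and fold changes in disc cells for a core of 16 members, and for the 4 lowest and 4 highest of the others. Promoters came from RefSeq (GRCm38.p6) and gene positions from GENCODE on GRCm38.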

Additional observations from a re-analysis of the deposited data

Results flagged for a closer look

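Ier3 differed between inner and outer annulus cells in its response, by a test of the difference itself. The outer minus the inner log2 change in injured discs was -1.92 (edgeR, adjusted p = 0.0454), and over 4 alternatives the difference ran from -2.11 to -1.89 and was called in each (adjusted p from 1.53e-04 to 0.0421). The control and injured cells of each class were spread unevenly over its clusters, and the part of this in the difference was not tested.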

How the results depend on the processing

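With round as a replicate block, the paired analysis called 483 genes in disc cells where the unpaired fit called 2, and 9 members where it called 0. The block called 18 members in all cells, 12 in the inner class and 17 in the outer class, against 0 in each without it. It moved the median log2 change of the members to -0.93 in disc cells, -0.97 in all cells and -0.22 in the Cnmd and Grem1 cluster. The block without shared round 1 barcodes gave 246 genes and 3 members in disc cells (median -0.97), and the block with cells thinned to 1000 UMIs gave 497 genes and 20 members (median -0.88).

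Other alternatives without the block changed the calls as follows. DESeq2 called 123 genes and 2 members in disc cells, and 2 members each in all cells and in the outer class. In disc cells 25 genes were called with no filter on low counts, 8 with cells thinned to 1000 UMIs, and 0 with a minimum of 500 detected genes or with cells under 10% mitochondrial UMIs. The disc cell median was -0.74 with no filter, -0.78 with thinned cells and -0.73 under 10% mitochondrial UMIs. In all cells the median was -0.84 with a minimum of 500 genes, -0.69 with no filter and -0.83 without shared barcodes. In the outer class no filter gave 3 members called, and thinning left 22 members tested, 21 of them lower. No filter moved the median to -0.23 in the Cnmd and Grem1 cluster, and gave 13 members called between the classes (10.6% of all genes) and 3 for class by injury (1% of all genes). Class by injury had 2 members called without shared barcodes and 2 with DESeq2 size factors. The rounds differed in 6 members without shared barcodes. Restricting the inner class to the Cnmd and Grem1 cluster gave a median of -0.18, and the outer class to the Myoc and Angptl7 cluster -0.25. For these medians and counts the cause was not tested.

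Leaving out 1 library at a time, with the lone library of a group assumed to vary like the other group, gave 0 to 146 genes and 0 to 6 members called in disc cells, with medians of -1.24 to -0.38. The ranges were 0 to 11 members called and -1.03 to -0.49 in all cells, 0 to 4 members called and -1.24 to 0.066 in the inner class with 18 to 34 members lower, and 0 to 5 called in the outer class. In the Cnmd and Grem1 cluster 4 to 31 members were lower and the median ran from -1.15 to 0.68, reaching 0.38 without injured round 1. In the Myoc and Angptl7 cluster 0 to 2 were called, 16 to 26 were lower and the median ran from -0.68 to 0.12. None of the 24 members with printed fold changes was called in the main fit. Of their 408 values under the alternatives, 364 kept their sign and stayed uncalled, 36 were called, and 8 changed sign. Of the 36 called, 29 came from fits with round as a block and 7 from other alternatives. With 1 library left out, Dusp1 ran from -1.93 to 0.0021 (without control round 2), Ier5 from -0.52 to 0.32 (without control round 1), Nfkbiz from -0.33 to 0.24 (without control round 1; 0.11 without injured round 2) and Cebpd from -0.76 (without injured round 1; -0.15 without control round 2) to 0.99. With the block and thinned cells Ier5 was 0.069 and Nfkbiz 0.012. All 8 are log2 values.

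Each group has 2 libraries. Depth limits the low members most, such as Egr2 and Egr3, and the outer class, which rests on 34 to 52 cells in 3 of the libraries.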
